A study of Mus musculus with 24 samples.

Results

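These results concern granulosa cells given human chorionic gonadotropin (hCG) for 12 h, set against the same cells given hCG for 4 h. hCG is a hormone that binds the luteinizing hormone receptor and stands in for the luteinizing hormone surge. Members were chosen by the sample labels alone. The libraries are those of cells transfected with the control siRNA (siNC) and treated with hCG, 4 harvested at 12 h and 4 at 4 h, or 8 of the 24 libraries of the series. All cells, in every group used here, were primary granulosa cells of C57BL/6 mice 23 days old, taken 48 h after pregnant mare serum gonadotropin (PMSG), which makes follicles grow. Cells from 2 mice were pooled, plated, transfected for 3 h and then given hCG or plain medium, so the times count from that addition and no group was left untransfected. The groups set beside the main pair were siNTS cells with hCG at 12 h and at 4 h, transfected with an siRNA against Nts (neurotensin), and siNC cells in plain medium (control) at 12 h and at 4 h, with 4 libraries each. Libraries carry the labels A_1, A_2, B_2 and B_3 in every group. These labels stand for 3 culture dates, and A_2 and B_2 share one of them.

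In the ovary the luteinizing hormone surge acts on granulosa cells through its receptor, cyclic AMP and protein kinase A, and then through epidermal growth factor (EGF)-like ligands and the ERK kinases. A first wave of transcription factors, prostaglandin, matrix and peptide genes prepares the follicle wall to rupture. The cells then leave the cell cycle, take up and make cholesterol, and turn into luteal cells that secrete progesterone.

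The 8 libraries held 37.6 M to 43.1 M estimated counts each, and 15405 genes were tested. On the log2 scale of expression the first principal component held 72.5% of the variance, with the 12 h libraries between 30.4 and 46.1 and the 4 h libraries between −50.5 and −28.3 along it. Chi-square per degree of freedom between libraries of the same group lay between 23.9 and 254, so none looked like a copy of another. Nothing in the labels says whether A_2 and B_2 came from separate pools of mice, and p-values then measure the spread between these libraries, part of which may be technical. The control library A_1 at 12 h was named as unusual when the comparison was chosen, so many results that use it are given with and without it. How far it lay from the other control libraries is not measured here. In control cells 2160 genes passed with label A_1 and 5859 without it. Among these 8 libraries, the 4 h library A_1 held the most oocyte transcripts, described with the markers of other cells. In RNA from a whole culture, fewer cells of a kind and less RNA per cell cannot be told apart.

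With hCG, 4544 genes (29.5%) were higher at 12 h than at 4 h and 4274 genes (27.7%) were lower, by edgeR's quasi-likelihood test with the label as a block and Benjamini-Hochberg adjustment at 0.05. Together these made up 57.2% of the genes tested. Counts by gene list below are to be read beside these shares of all genes. Changes of at least 2-fold were counted for 1740 higher genes (11.3%) and 1531 lower genes (9.94%), and changes of at least 4-fold for 443 higher and 641 lower genes. The middle 50% of the log2 fold changes lay between −0.42 and 0.50, with a median of 0. Expression is given below in CPM (counts scaled to the same library total) for each library in the order A_1, A_2, B_2 and B_3. Log2 fold changes are 12 h minus 4 h with their standard error. For 43.1% of the genes the CPM of the 4 libraries at 12 h did not overlap those at 4 h.

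Vascular ligands, lipid droplet and channel genes were among the largest rises. Angpt1 encodes angiopoietin 1, a ligand of the endothelial receptor Tie2. It had 12.03, 24.4, 22.2 and 29.3 CPM at 12 h, against 0.167, 0.555, 0.34003 and 0.608 CPM at 4 h, a log2 fold change of 5.72 ± 0.16 (adjusted p = 4.3e-08). Apln, which encodes the peptide ligand of the apelin receptor, had 84.9, 125, 101 and 169 CPM at 12 h, against 3.17, 3.38, 2.93 and 5.57 CPM at 4 h (4.99 ± 0.12, adjusted p = 1.7e-08). In both genes the lowest library at 12 h lay far above the highest at 4 h. Hp, encoding haptoglobin, the haemoglobin-binding protein, had 4.89, 8.65, 7.23 and 12.4 CPM at 12 h, against 0.0835, 0.266, 0.34003 and 0.075996 CPM at 4 h (5.39 ± 0.33, adjusted p = 1.8e-06). Plin5 encodes a lipid droplet coat protein that ties droplets to mitochondria, and it had 11.9, 12.6, 12.7 and 13.2 CPM at 12 h, against 0.417, 0.555, 0.759 and 0.557 CPM at 4 h (4.46 ± 0.17). Kcnk3, a potassium leak channel, had 85.3, 65.9, 73.003 and 88.5 CPM at 12 h, against 4.51, 3.09, 5.702 and 3.88 CPM at 4 h (4.20 ± 0.15). None of these groups overlapped. Pik3c2g, a class II phosphoinositide kinase, rose by 5.35 on the log2 scale, and Timp4, an inhibitor of metalloproteinases, by 4.93. Cdh15, encoding M-cadherin, rose by 4.64, Dpp6, an accessory subunit of potassium channels, by 4.31, and Slc25a18, a mitochondrial glutamate carrier, by 4.16. In control cells without hCG Timp4 and Dpp6 rose by 3.39 and 5.29. At 12 h Dpp6 averaged 29.3 CPM there, against 7.8 CPM with hCG. The difference from the change in control cells passed for Pik3c2g, Cdh15 and Slc25a18 but not for Timp4 and Dpp6. Snurf was listed at 9.395, 3.84, 5.85 and 7.48 CPM at 12 h, against 0 in all 4 libraries at 4 h. It shares its locus with Snrpn, so the way reads were divided between the pair is uncertain and no fold change is given.

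**Figure D1:**
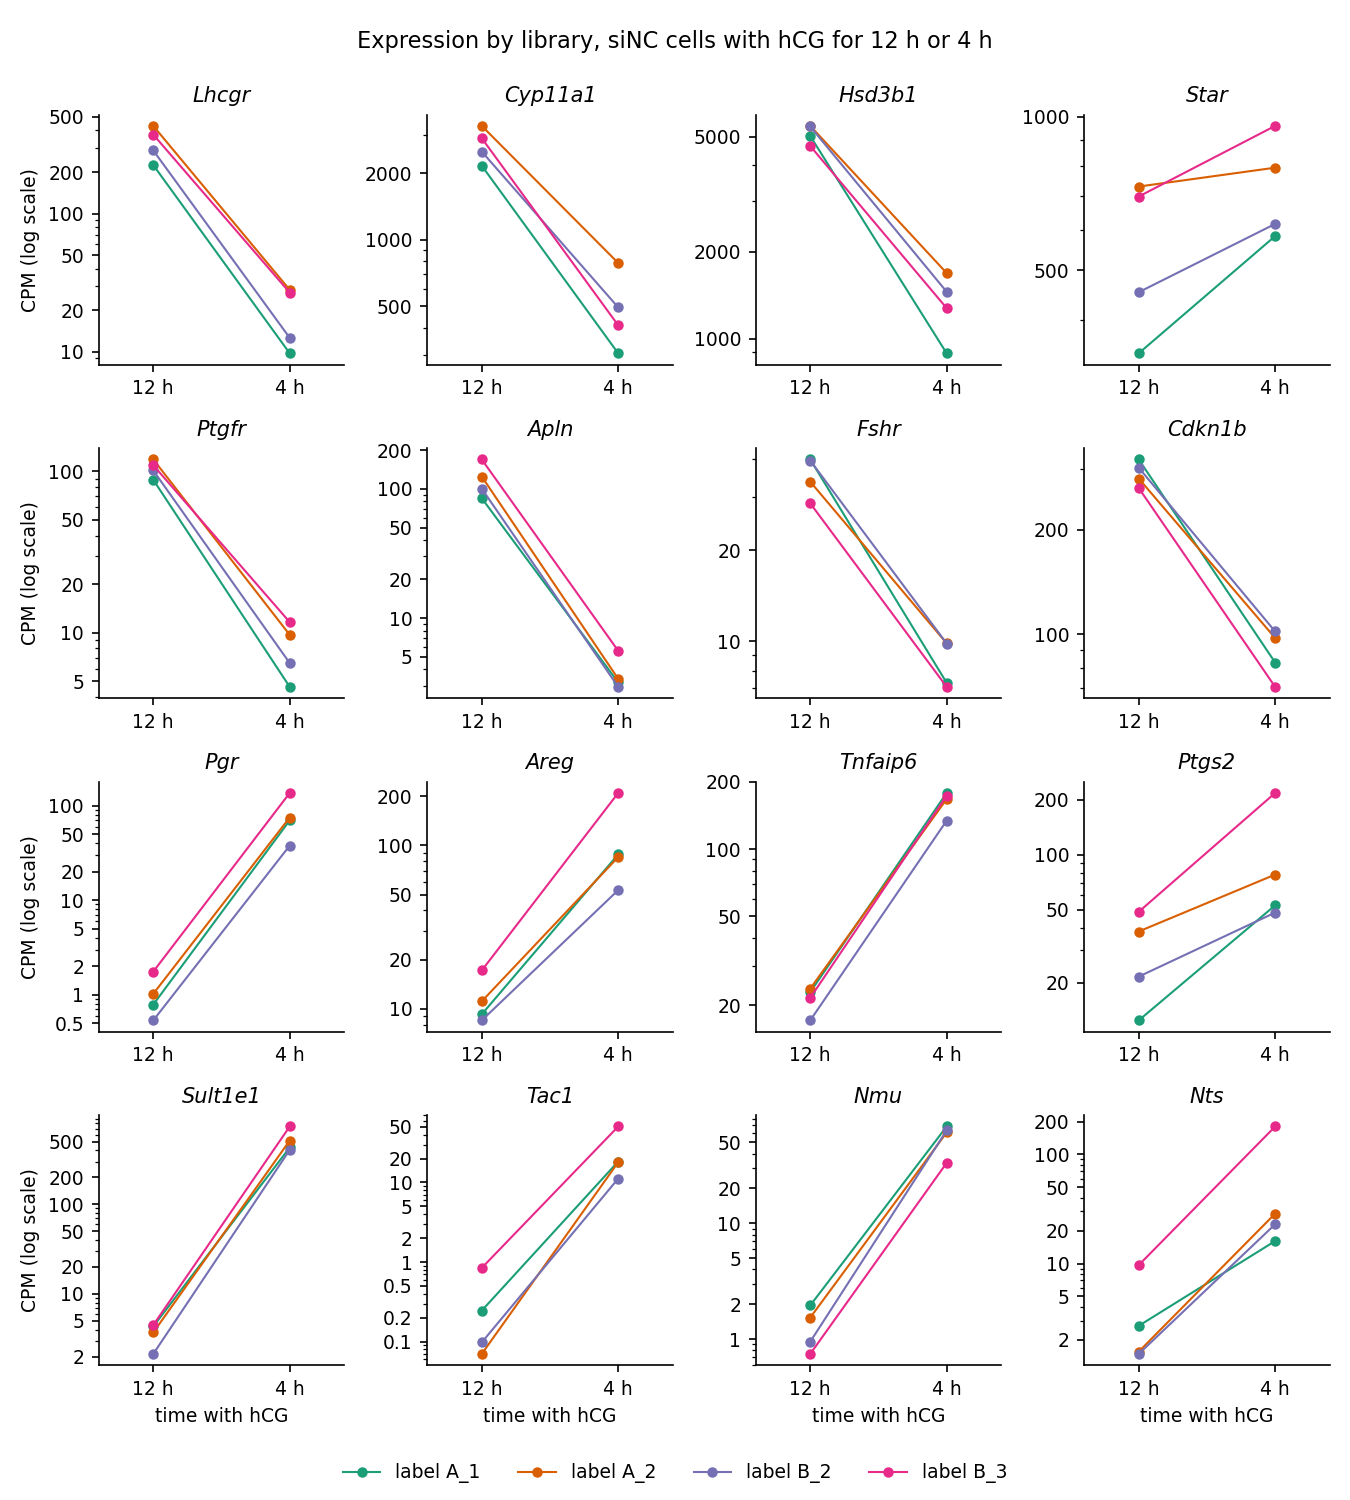
Expression of 16 named genes in siNC cells with hCG; each panel has CPM on a log axis, 12 h at the left and 4 h at the right, and 1 line per label joining its library at 12 h and its library at 4 h. Lhcgr, Cyp11a1, Hsd3b1, Ptgfr, Apln, Fshr and Cdkn1b stood higher at 12 h under every label, while Pgr, Areg, Tnfaip6, Sult1e1, Tac1, Nmu and Nts stood lower without overlap, and the groups of Star and Ptgs2 overlapped.

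The genes with the largest falls encode a hormone receptor, an enzyme, secreted proteins and others. Pgr encodes the progesterone receptor, a transcription factor needed for follicle rupture. It had 0.787, 1.02, 0.536 and 1.76 CPM at 12 h, against 69.7, 74.7, 37.7 and 136 CPM at 4 h, a log2 fold change of −6.26 ± 0.12 (adjusted p = 1.2e-08) or 76.9-fold. Sult1e1 encodes the sulfotransferase that inactivates estrogens, and it had 4.34, 3.72, 2.14 and 4.497 CPM at 12 h, against 429.96, 513, 404 and 737 CPM at 4 h (−7.15 ± 0.18, adjusted p = 1.7e-08). The libraries of the 2 times were separated widely in both genes, with B_3 the highest at each time. Esm1, encoding the proteoglycan endocan, had 0.163, 0.116, 0.0731 and 0.433 CPM at 12 h, against 27.9, 17.8, 18.2 and 29.9 CPM at 4 h (−6.90 ± 0.23). Wnt11, a secreted Wnt ligand, had 0.109, 0.0233, 0.0974 and 0.2405 CPM at 12 h, against 14.7, 7.39, 7.59 and 14.8 CPM at 4 h (−6.54 ± 0.26). Both genes were under 1 CPM in every library at 12 h. Epgn, encoding the EGF-family ligand epigen, had 0.869, 0.628, 0.365 and 0.673 CPM at 12 h, against 16.02, 20.8, 11.95 and 29.5 CPM at 4 h (−4.93 ± 0.20). Falls were also called for Npy, encoding neuropeptide Y (−5.20 on the log2 scale), for Plet1 (−5.12) and for Nptx1, encoding a secreted pentraxin (−5.05). They were called too for Kcne4, a potassium channel subunit (−4.85), and for Msc, encoding the repressor musculin (−4.84).

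Genes for the enzymes that make progesterone from cholesterol rose, whereas the gene for cholesterol delivery to them did not. Cyp11a1 encodes the enzyme that cleaves the cholesterol side chain. It had 2167, 3284, 2511 and 2889 CPM at 12 h, against 305, 784, 493 and 409 CPM at 4 h, a rise of 2.52 ± 0.14 on the log2 scale (adjusted p = 1.1e-06). Hsd3b1, whose enzyme turns pregnenolone into progesterone, had 5023, 5444, 5418 and 4639.7 CPM at 12 h, against 891, 1688, 1455 and 1277 CPM at 4 h (1.98 ± 0.13, adjusted p = 2.8e-06). In both genes every library at 12 h was above every library at 4 h. Star encodes the protein that moves cholesterol into mitochondria. It had 344, 729, 453 and 697 CPM at 12 h, against 584, 794, 616 and 959 CPM at 4 h (−0.45 ± 0.11, adjusted p = 0.0073). Its groups overlapped, though each label was lower at 12 h, and the call was lost without the replicate block. Of the 18 tested genes for progesterone synthesis and its cofactors, 9 rose and 7 fell, beside 29.5% and 27.7% of all genes. The median log2 fold change was 0.18. Without the replicate block 2 fell in place of 7, and without label B_3 4 fell. In control cells 3 of these genes rose and 2 fell, with a median of 0.24. Without label A_1 there, 6 rose and 4 fell, with a median of 0.13. Nr0b2, a nuclear receptor that represses others, rose by 2.46 on the log2 scale.

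More cholesterol synthesis genes rose than fell. Of 23 tested, 11 rose and 3 fell, beside 29.5% and 27.7% of all genes, and 9 did not pass. The median was 0.17. Without the replicate block 8 rose, and 8 rose also without label A_2 and without label B_3. Tm7sf2, a sterol reductase of the late pathway, had 60.9, 40.2, 41.3 and 28.8 CPM at 12 h, against 5.06, 8.57, 7.59 and 3.901 CPM at 4 h (2.77 ± 0.20, adjusted p = 4.8e-06). Dhcr7, the reductase of the last step, had 371, 355, 313 and 361 CPM at 12 h, against 232, 203, 224 and 156 CPM at 4 h (0.79 ± 0.12, adjusted p = 0.00045). Mvk, the mevalonate kinase, had 152, 116, 109 and 104 CPM at 12 h, against 74.2, 75.7, 84.6 and 53.9 CPM at 4 h (0.74 ± 0.12). The 12 h libraries of these 3 genes were all above the 4 h libraries, and Ebp, a sterol isomerase, rose by 0.97. Among 14 tested genes of estrogen and androgen synthesis and their receptors, 6 rose and 2 fell, with a median of 0.27. Hsd17b4, Srd5a1 and Akr1c14, which encode steroid-converting enzymes, rose by 0.86, 0.85 and 0.76 on the log2 scale. Cyp19a1, encoding the aromatase that makes estrogens, had 2.88, 3.98, 4.09 and 2.53 CPM at 12 h, against 3.28, 4.54, 3.74 and 14.5 CPM at 4 h (−0.69 ± 0.38, adjusted p = 0.15). Its groups overlapped, and 4 h library B_3 was far above the other libraries.

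Receptors for luteal hormones rose. Lhcgr, encoding the receptor that hCG itself binds, had 225, 431, 287 and 373 CPM at 12 h, against 9.77, 28.1, 12.6 and 26.9 CPM at 4 h, a log2 fold change of 4.18 ± 0.15 (adjusted p = 1.6e-07) or 18.2-fold. Ptgfr encodes the receptor for prostaglandin F2α, the signal that ends luteal life, and it had 88.7, 119, 101 and 109 CPM at 12 h, against 4.62, 9.704, 6.49 and 11.6 CPM at 4 h (3.75 ± 0.17, adjusted p = 3.7e-07). Prlr, the prolactin receptor that sustains the rodent corpus luteum, had 361, 741, 638 and 833 CPM at 12 h, against 58.1, 146, 72.6 and 109 CPM at 4 h (2.76 ± 0.14, adjusted p = 6.2e-07). All 3 receptors stood apart by time in every library. In control cells Lhcgr, Ptgfr and Prlr had log2 fold changes of 1.97, 0.37 and 1.79. The difference passed for Lhcgr and Ptgfr but not for Prlr (0.88 ± 0.41). That of Prlr was 1.37 and passed without the 12 h control library A_1. Of 25 luteal genes 11 rose, beside 29.5% of all genes, and 8 fell, a share near the 27.7% of all genes. The median was 0.37, and 2 fell without the replicate block and 5 without label B_3. Akr1c18, whose enzyme degrades progesterone, had 11.9, 12.2, 9.04 and 11.8 CPM at 12 h, against 4.53, 10.3, 6.46 and 11.7 CPM at 4 h (0.51 ± 0.20), did not pass at an adjusted p of 0.05, and its groups overlapped.

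Single genes of the growing follicle moved in either direction. Of 25 preovulatory granulosa genes 7 rose and 9 fell, with a median of −0.11, shares near the 29.5% and 27.7% of all genes that rose and fell, so the counts set the list apart in neither direction. Fshr, the follicle-stimulating hormone receptor, had 39.97, 33.7, 39.6 and 28.6 CPM at 12 h, against 7.29, 9.85, 9.83 and 7.07 CPM at 4 h (2.06 ± 0.13, adjusted p = 1.7e-06). Foxl2, a transcription factor that maintains granulosa identity, had 182, 137, 179.5 and 168 CPM at 12 h, against 87.2, 64.9, 94.01 and 70.8 CPM at 4 h (1.08 ± 0.09). Both were higher at 12 h without overlap. Amh, encoding anti-Müllerian hormone, had 20.9, 10.7, 11.8 and 13.01 CPM at 12 h, against 79.4, 36.9, 52.1 and 52.6 CPM at 4 h (−1.97 ± 0.10, adjusted p = 6.9e-07). Its receptor gene Amhr2 had 122, 95.5, 112 and 89.4 CPM at 12 h, against 26.4, 26.1, 33.8 and 24.8 CPM at 4 h (1.92 ± 0.10, adjusted p = 9.2e-07). The hormone and its receptor thus moved in opposite directions, in both cases without overlap between times. Inha, the inhibin alpha subunit, had 930.4, 688, 763 and 840.5 CPM at 12 h, against 2384, 1788, 1943 and 2017 CPM at 4 h (−1.34 ± 0.08), again with separate groups. In control cells Amh, Amhr2 and Inha moved in the same directions, with log2 fold changes of −1.80, 1.58 and −1.30. Their differences from control time did not pass (−0.16, 0.34 and −0.05). That of Foxl2 did not pass either (0.54), while that of Fshr passed (1.17).

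Most ovulatory genes were lower at 12 h. Of 32 tested, 22 fell and 5 rose, with a median of −0.95 on the log2 scale, and 3 rose without the replicate block. In control cells without hCG the median of this list was −1.03, with 15 lower and 2 higher at 12 h. Without label A_1 it was −1.07, with 20 lower and 3 higher. The change with hCG differed from that in control cells upward for 3 genes and downward for 3 (3 and 4 without the 12 h control library A_1). Areg encodes amphiregulin, an EGF-like ligand that relays the hormone signal. It had 9.26, 11.1, 8.501 and 17.2 CPM at 12 h, against 88.1, 84.8, 53.3 and 209 CPM at 4 h (−3.11 ± 0.16, adjusted p = 6.1e-07). Ereg, encoding epiregulin, had 29, 39.9, 30.2 and 56.3 CPM at 12 h, against 144, 195, 108 and 366 CPM at 4 h (−2.29 ± 0.14), and Btc, encoding betacellulin, had 14.9, 19.4, 13.96 and 20.4 CPM at 12 h, against 315, 343, 229.8 and 465 CPM at 4 h (−4.27 ± 0.12). These ligands of the EGF receptor all fell, and in none did the groups overlap. Adcyap1, encoding the peptide PACAP, had 6.49, 11.5, 6.02 and 9.16 CPM at 12 h, against 103, 170.1, 103 and 141 CPM at 4 h (−3.98 ± 0.10, adjusted p = 1.7e-08). Ptgs2, the inducible enzyme of prostaglandin synthesis, had 12.4, 38.1, 21.6 and 48.8 CPM at 12 h, against 52.97, 78.02, 48.4 and 218 CPM at 4 h (−1.61 ± 0.19, adjusted p = 9.3e-05). Each label of Ptgs2 was lower at 12 h, but 12 h library B_3 was above 4 h library B_2, so the groups overlapped. Cxcr4, a chemokine receptor, had 48.5, 59.3, 38.8 and 55.4 CPM at 12 h, against 62.3, 106, 61.05 and 75.1 CPM at 4 h (−0.57 ± 0.10, adjusted p = 0.0012), without overlap.

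Prostaglandin and cumulus matrix genes were mostly lower as well. Of 18 tested prostaglandin genes 10 fell and 4 rose, with a median of −0.42. Ptger4, a receptor for prostaglandin E2, had a log2 fold change of −2.54 and Slco2a1, the prostaglandin transporter, one of −2.29. Ptgds, which makes prostaglandin D2, had 7.87, 16.02, 14.98 and 8.71 CPM at 12 h, against 0.807, 2.27, 1.94 and 0.937 CPM at 4 h (3.04 ± 0.15), the libraries at 12 h lying above all those at 4 h. Of 14 genes of the hyaluronan matrix around the oocyte 9 fell and 0 rose, with a median of −0.70. Tnfaip6, which links hyaluronan to heavy chains of inter-alpha-inhibitor, had 22.9, 23.8, 17.1 and 21.6 CPM at 12 h, against 178, 167, 134 and 173 CPM at 4 h (−2.93 ± 0.09, adjusted p = 6.4e-08). Its 4 libraries at each time were close to one another and the times were far apart. Ptx3, the matrix pentraxin, had −4.21 on the log2 scale, Has1, a hyaluronan synthase, −4.87 and Cd44, the hyaluronan receptor, −1.82. Has1 was low at both times, with means of 0.037 CPM at 12 h and 1.19 CPM at 4 h. Has2, the main hyaluronan synthase of the cumulus, had a log2 fold change of −0.69 ± 0.28 and did not pass (adjusted p = 0.06).

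No immediate early or ERK feedback gene was called higher at 12 h. Of 27 immediate early and cyclic AMP-responsive genes 23 fell (median −1.12), and of 18 feedback genes of the ERK pathway 16 fell (median −1.40), beside 27.7% of all genes. Egr3, an early growth response factor, had 3.37, 4.396, 2.996 and 9.19 CPM at 12 h, against 49.9, 45.2, 37.1 and 129.5 CPM at 4 h (−3.67 ± 0.12, adjusted p = 1.1e-07). Fos, the partner of Jun in AP-1, had 7.01, 6.42, 5.89 and 11.2 CPM at 12 h, against 13.2, 10.96, 9.99 and 24.4 CPM at 4 h (−0.90 ± 0.11, adjusted p = 0.00014). For Egr3 the times did not overlap, whereas for Fos 12 h library B_3 was above 4 h libraries A_2 and B_2. Fosl1 and Fosb, other AP-1 subunits, fell (−2.86 and −2.64 on the log2 scale), as did Atf3, a stress-induced factor (−2.42). Dusp5, a phosphatase that shuts off nuclear ERK, had 9.72, 7.95, 8.43 and 10.1 CPM at 12 h, against 48.4, 27.5, 32.6 and 45.9 CPM at 4 h (−2.06 ± 0.12). Errfi1, an inhibitor of the EGF receptor, had 109, 133, 86.4 and 151 CPM at 12 h, against 500.4, 492, 398 and 724 CPM at 4 h (−2.14 ± 0.10). Both genes were lower at 12 h in all libraries, and the feedback genes Ier5 and Phlda1 fell (−1.87 and −1.89). Nr4a1, an orphan nuclear receptor of the early response, had 73.2, 94.7, 79.97 and 115 CPM at 12 h, against 72.7, 80.7, 54.6 and 149 CPM at 4 h. Its log2 fold change was 0.10 ± 0.14 and did not pass (adjusted p = 0.54), with overlapping groups. Cebpb, a luteinization factor, had a log2 fold change of −0.41 ± 0.10 (adjusted p = 0.0058) that was lost without the replicate block.

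**Figure D2:**
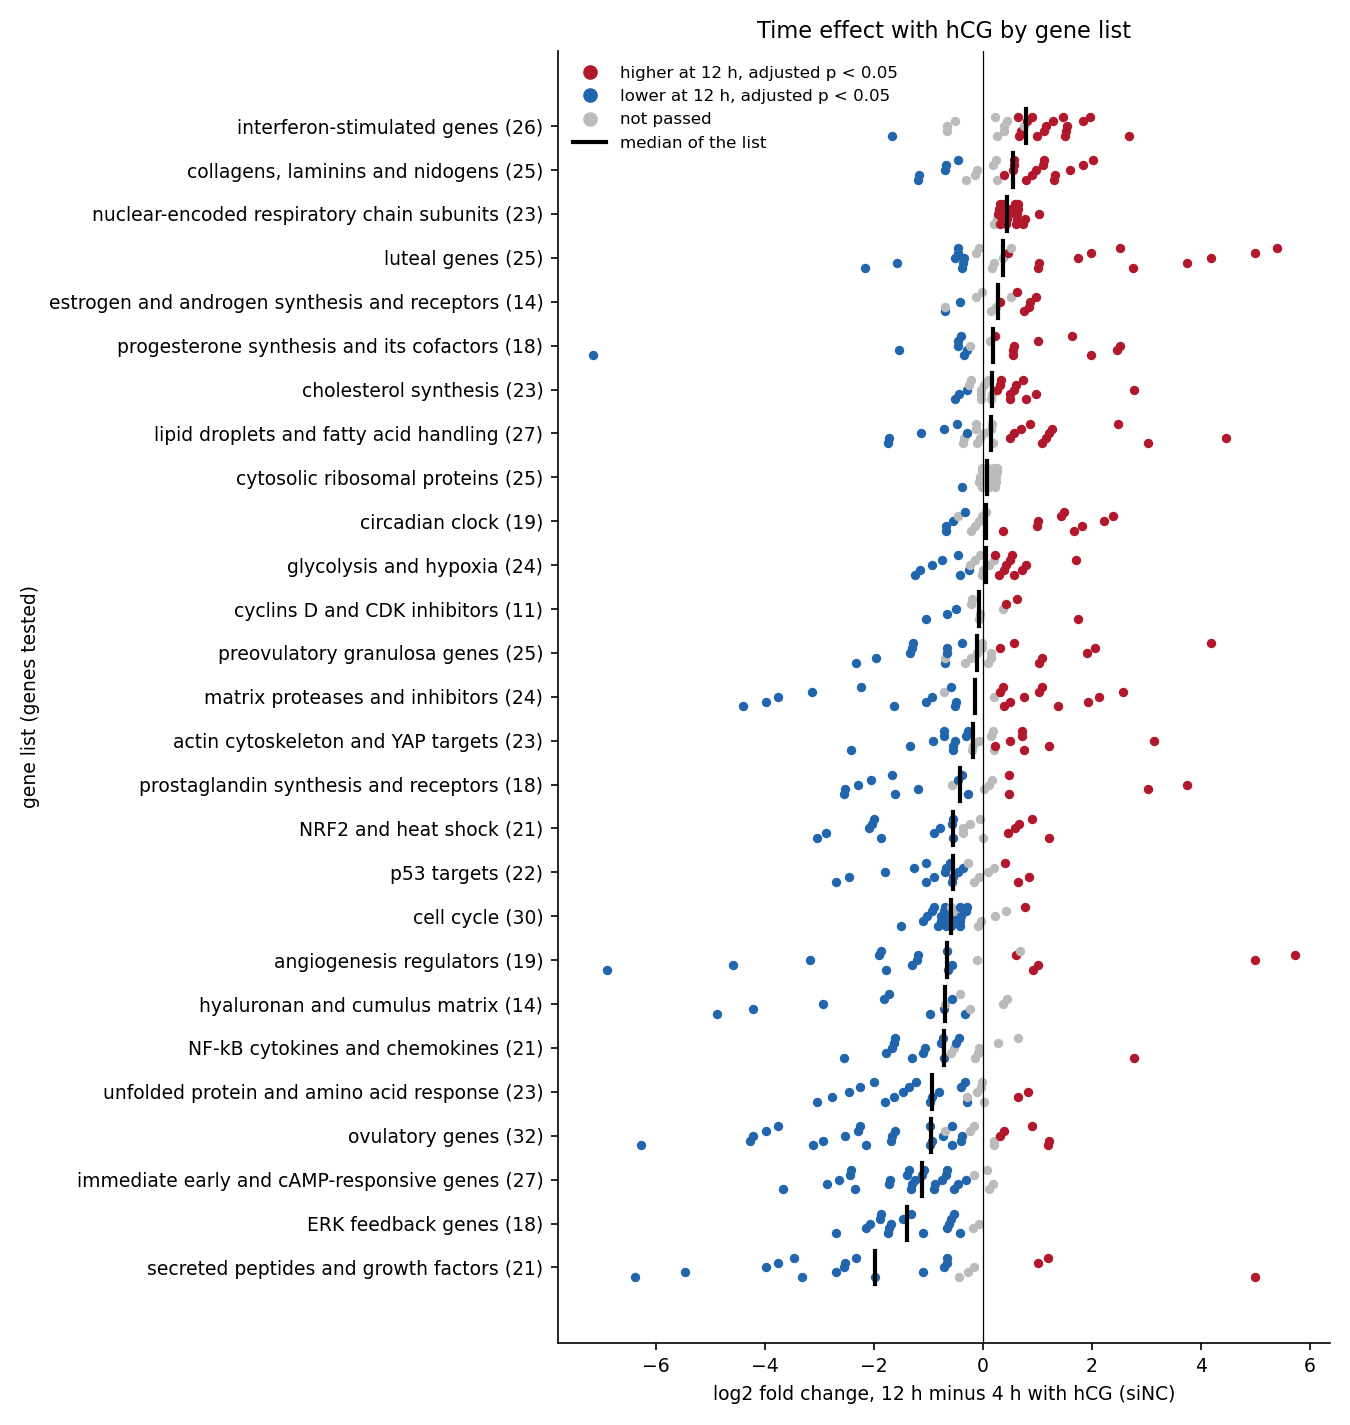
Log2 fold change, 12 h minus 4 h with hCG, of the tested members of 27 gene lists, 1 row per list with its number of tested genes in brackets; each point is a gene, coloured by its call, and the black bar is the median of the list. Lists at the bottom, secreted peptides and ERK feedback genes, had medians of −1.98 and −1.40, and interferon-stimulated genes at the top had a median of 0.79.

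Secreted peptides had the lowest median of the 27 lists that are not cell markers, −1.98, with 15 of 21 tested members lower at 12 h and 3 higher. In control cells the median of this list was −1.74, with 9 lower and 2 higher. Without label A_1 it was −1.45, with 13 lower and 3 higher. The change with hCG differed from that in control cells upward for 4 genes and downward for 5 (4 and 7 without the 12 h control library A_1). Nmu encodes neuromedin U, and it had 1.96, 1.53, 0.94999 and 0.746 CPM at 12 h, against 68.5, 60.9, 63.4 and 33.2 CPM at 4 h (−5.47 ± 0.16, adjusted p = 5.2e-08). Tac1, the precursor of substance P, had 0.244, 0.0698, 0.0974 and 0.842 CPM at 12 h, against 18.4, 17.98, 11.2 and 50.6 CPM at 4 h (−6.38 ± 0.24, adjusted p = 1.6e-07). Nts, encoding neurotensin, had 2.69, 1.56, 1.49 and 9.67 CPM at 12 h, against 16.1, 28.7, 22.9 and 180.01 CPM at 4 h (−3.77 ± 0.25, adjusted p = 3.0e-06). In all 3 genes the times were apart, and for Nts and Tac1 the B_3 library was the highest at each time. Gdf15, a stress-induced cytokine, fell (−2.69 on the log2 scale). The 3 peptides that rose were Apln and, named after its values were seen, Adm and Edn2, which encode adrenomedullin and endothelin 2.

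Regulators of blood vessels went both ways. Of 19 tested 12 fell and 5 rose, with a median of −0.66. Kdr, a receptor for vascular endothelial growth factor (VEGF), had 1.17, 3.42, 1.29 and 2.67 CPM at 12 h, against 59.4, 70.001, 30.7 and 42.2 CPM at 4 h (−4.58 ± 0.23, adjusted p = 6.7e-07), without overlap. Vegfa itself had 69.4, 135, 86.8 and 139 CPM at 12 h, against 156, 170.3, 117 and 217 CPM at 4 h (−0.64 ± 0.13, adjusted p = 0.0027), with overlapping groups and a call lost without the replicate block. Beside these, of 6 tested endothelial markers 3 rose and 1, Kdr itself, fell, with a median of 0.58. The other 5 tested summed to 10.5 to 15 CPM at 12 h and 5.4 to 9.9 CPM at 4 h, and with Kdr and the markers of few counts the sum was 11.9 to 17.9 CPM at 12 h and 38.5 to 76.8 CPM at 4 h. The part of endothelial cells in the vascular genes was not tested. The endothelial genes Pecam1, Egfl7 and Cdh5 had log2 fold changes of 1.496, 1.05 and 0.49. Of 24 glycolysis and hypoxia genes 10 rose, beside 29.5% of all genes, and 7 fell, a share near the 27.7% of all genes. The median of the list was 0.06. Bnip3, a mitophagy receptor induced by hypoxia, rose by 1.70, whereas Egln3, an oxygen sensor, and Slc2a1, a glucose carrier, had −1.25 and −1.15. Ero1a, an oxidase of disulfide formation, fell as well (−0.76).

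Matrix genes went both ways as well. Of 24 proteases and inhibitors 11 rose and 11 fell, with a median of −0.15, and 7 rose without the replicate block. Mmp11, a stromelysin, had 279.9, 316, 473 and 339.6 CPM at 12 h, against 38.3, 67.03, 72.4 and 60.1 CPM at 4 h (2.58 ± 0.12, adjusted p = 4.5e-07). Plaur, the urokinase receptor, and Serpinb2, an inhibitor of urokinase, fell (−3.13 and −4.40 on the log2 scale). Mmp13, a collagenase, had 0.299, 0.279, 0.341 and 2.72 CPM at 12 h, against 3.03, 3.38, 4.11 and 45.2 CPM at 4 h, with B_3 the highest library at both times. Of 25 genes for collagens and other basement membrane proteins 14 rose and 5 fell, with a median of 0.55, and 3 fell without the replicate block. In control cells the median was 0.84, with 8 higher and 2 lower. Without label A_1 it was 0.50, with 14 higher and 4 lower. The change with hCG differed from that in control cells upward for 0 genes and downward for 1 (2 and 1 without the 12 h control library A_1). Loxl2, a collagen cross-linking enzyme, rose by 2.03, the collagen VI chains Col6a1 and Col6a2 by 1.84 and 1.33, and Sparc, a collagen-binding protein, by 1.60. Of 23 tested actin and YAP target genes 7 rose, a share near the 29.5% of all genes, and 10 fell, beside 27.7% of all genes. Myl9, a myosin light chain, rose by 3.14, while Ccn2 and Ccn1, matricellular targets of YAP, had −2.42 and −1.33 and Tpm1, a tropomyosin, had −0.91. Acta2, smooth muscle actin, rose by 0.73, beside 9 tested fibroblast and smooth muscle markers of which 5 fell and 1 rose.

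Cell cycle genes fell by moderate amounts. Of 30 tested 23 fell and 1 rose, with a median of −0.59. Pcna, the sliding clamp of DNA replication, had 152, 113, 111 and 85.3 CPM at 12 h, against 263, 203, 209.5 and 193 CPM at 4 h (−0.93 ± 0.10, adjusted p = 3.9e-05). Mcm5 and Cdc6, which load the replicative helicase, fell (−1.11 and −1.500 on the log2 scale), as did Cdc20, an activator of the anaphase-promoting complex (−0.90). Cdkn1b, encoding the cyclin-dependent kinase inhibitor p27, had 319.5, 281, 302 and 264 CPM at 12 h, against 82.8, 97.4, 102 and 70.4 CPM at 4 h (1.74 ± 0.11, adjusted p = 1.8e-06). Ccnd2, the cyclin that drives granulosa proliferation, had 135, 129, 138 and 145 CPM at 12 h, against 273, 193, 213 and 192 CPM at 4 h (−0.66 ± 0.11, adjusted p = 0.00081). The inhibitor was higher and Ccnd2 lower at 12 h in all libraries. Of the 11 tested cyclins D and kinase inhibitors 3 rose and 3 fell, shares near the 29.5% and 27.7% of all genes tested. Ccnd3 was among the genes that rose (0.63) and Cdkn1a, encoding p21, among those that fell (−1.05).

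Stress response genes mostly fell. Of 23 genes of the unfolded protein and amino acid response 16 fell and 2 rose, with a median of −0.93. Asns, asparagine synthetase, had 68.1, 40.002, 51.2 and 36.9 CPM at 12 h, against 495, 212, 318 and 334 CPM at 4 h (−2.77 ± 0.13, adjusted p = 5.1e-07). Slc7a11, the cystine carrier, fell (−3.05 on the log2 scale), and so did the serine pathway enzymes Psat1 and Shmt2 (−2.25 and −1.64). Of 21 NRF2 and heat shock genes 11 fell and 5 rose, with a median of −0.54, and 3 rose without the replicate block. Hmox1, haem oxygenase, had 157, 132, 141 and 129 CPM at 12 h, against 1479, 724, 1115 and 935 CPM at 4 h (−2.88 ± 0.13, adjusted p = 4.5e-07). Asns and Hmox1 were lower in every 12 h library than in any 4 h library. Gclc and Gclm, the subunits of the enzyme that starts glutathione synthesis, fell (−1.87 and −2.04). Of 22 p53 targets 14 fell and 3 rose, with a median of −0.56, and examples are Pmaip1, a BH3 protein of cell death (−2.46), and Perp, a desmosomal protein (−1.80).

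Interferon-stimulated genes had the highest median of these lists, 0.79. Of 26 tested 16 rose and 1 fell, and 10 rose without the replicate block, while 3 fell without label B_3. Bst2, encoding tetherin, had 309.7, 312, 349.8 and 228 CPM at 12 h, against 43.3, 49.6, 51.9 and 40.2 CPM at 4 h (2.69 ± 0.10, adjusted p = 1.6e-07). It was higher in every library at 12 h than in any at 4 h. Ddx58 and Ifih1, sensors of viral RNA, rose by 1.46 and 1.52 on the log2 scale. The 1 gene that fell, named after its value was seen, was Cxcl10, a chemokine. By contrast, of 21 tested NF-kB cytokines and related genes 13 fell and 1 rose, with a median of −0.71, and 8 fell without the replicate block. Tnfaip3, an inhibitor of NF-kB, fell (−1.78), and so did Csf1, macrophage colony-stimulating factor (−1.31). Saa3, an acute-phase protein, was the member that rose (2.78). Macrophage and leukocyte markers summed to 13.7 to 18.8 CPM at 12 h and 22.7 to 29.6 CPM at 4 h, with Cd3e at 0 at 12 h. Of 11 tested markers 6 fell and 0 rose, with 3 falling without the replicate block, and their part in these lists was not tested.

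Genes of the respiratory chain rose almost throughout, by small amounts. Of 23 tested nuclear-encoded subunits 21 rose and 0 fell, with a median of 0.43, and 11 rose without the replicate block. Sdha, a subunit of complex II, had 286, 267, 300.2 and 281 CPM at 12 h, against 147, 176, 178 and 161 CPM at 4 h (0.78 ± 0.09, adjusted p = 0.0001), with separate groups. Ndufb3 and Ndufa5 of complex I rose by 1.03 and 0.62 on the log2 scale, and Sdhb by 0.61. Of 25 cytosolic ribosomal protein genes 0 rose and 1 fell, with a median of 0.08. That gene, Rps6, had a log2 fold change of −0.38, and its call was lost without any 1 of the labels A_2, B_2 and B_3. Of 27 genes of lipid droplets and fatty acid handling 11 rose and 6 fell, beside 29.5% and 27.7% of all genes. Beside Plin5, the droplet protein gene Plin4 rose by 3.03, whereas Dgat2, which makes triglycerides, and Acsl4, which activates arachidonic acid, fell (−1.71 and −1.14). Among 19 tested clock genes 9 rose and 4 fell, beside 29.5% and 27.7% of all genes, with 2 falling without the replicate block. Rora, a nuclear receptor of the clock, had 82.9, 141, 114 and 137 CPM at 12 h, against 22.1, 22.8, 21.6 and 22.3 CPM at 4 h (2.39 ± 0.13, adjusted p = 1.0e-06), with no overlap. Dbp, Per2 and Per3, clock output and period genes, rose by 2.23, 1.81 and 1.67.

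Promoters of genes that moved by at least 2-fold were searched for 5 motifs in the 250 bases before the start, on both strands, in RefSeq promoters of the mouse build GRCm38.p6. A gene was counted where any of its promoters in the table held the motif. Genes matched by gene ID to a promoter were 12035 of the 15405 tested, 1350 of the 1740 that rose and 1154 of the 1531 that fell. The AP-1 motif TGANTCA was found in 7.48% of the genes that rose and 10.8% of those that fell, against 6.06% of all matched genes. The NR5A nuclear receptor motif CAAGGTCA stood in 2.44% of the genes that rose and 0.607% of those that fell, against 1.2% of all. The full cyclic AMP response element (CRE) TGACGTCA stood in 1.11% of the genes that rose and 2.86% of those that fell, against 2.86% of all. The short CRE motif TGACG, which the full element contains, stood in 20.5% of the genes that rose and 24.4% of those that fell, against 28.9% of all. The sterol-element-like motif TCACNCCAC stood in 1.63% of the genes that rose and 1.65% of those that fell, against 1.27% of all. These shares are descriptions and carry no test. A promoter was matched for 20 immediate early and cyclic AMP-responsive genes. Of these 13 (65%) held TGACG, 2 (10%) the full element and 0 any of the other 3 motifs. The list includes genes chosen for their response to cyclic AMP, so its CRE share is not independent of that choice. Of the 18 cholesterol synthesis genes with a promoter, 8 (44.4%) held TGACG, 0 the full element, 2 AP-1, 1 NR5A and 1 the sterol-element-like motif. The lines show, for 3 genes that fell and 1 that rose, the stretch around a match, on the gene's strand and with the motif in capitals. In Areg it is the full CRE, which begins 61 bases before the start, at chr5:91139508-91139575 on the plus strand. In Nmu and Tnfaip6 it is AP-1, beginning 171 bases before the start at chr5:76363912-76363978 on the minus strand and 142 bases before it at chr2:52037941-52038007 on the plus strand. In Amhr2 it is the NR5A motif, 232 bases before the start at chr15:102445117-102445172 on the plus strand. A match shows only that the letters are there.
Areg: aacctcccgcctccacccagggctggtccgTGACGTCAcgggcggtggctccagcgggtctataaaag
Nmu: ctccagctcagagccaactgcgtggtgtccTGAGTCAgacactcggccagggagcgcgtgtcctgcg
Tnfaip6: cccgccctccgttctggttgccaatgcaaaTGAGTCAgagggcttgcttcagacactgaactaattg
Amhr2: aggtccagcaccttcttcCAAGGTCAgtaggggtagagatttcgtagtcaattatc

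Time in culture also passes without hCG, and the control cells at 12 h and 4 h measure it. In them 1050 genes (6.82%) rose and 1110 (7.21%) fell, or 2160 in all, and 5859 passed without label A_1. Of the 4544 genes that rose with hCG 972 also rose without it, which is 21.4% of the list with hCG and 92.6% of the list without it. Of the 4274 that fell, 1010 also fell without hCG (23.6% of the list with hCG and 91% of the list without). Another 9 of the genes that rose with hCG fell without it, and 17 of those that fell rose without it. Leaving label A_1 out of the control fit gave 2507 genes that rose in both (55.2% of the list with hCG and 86.4% of the list without), 2412 that fell in both (56.4% and 81.5%) and 45 opposite in each direction. Sult1e1 had a log2 fold change of −7.15 with hCG and −7.28 in control cells. The difference between these changes was 0.03 ± 0.46 and did not pass (adjusted p = 0.97).

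The change with time was more positive with hCG than in control cells for 735 genes (4.77%) and more negative for 514 (3.34%). This count of 1249 rested on few libraries. It was 1714 without the 12 h control library A_1, and leaving out a label gave 1821 without A_1, 96 without A_2, 573 without B_2 and 228 without B_3. It was 459 without the replicate block. The largest positive differences were those of Hp (3.68 ± 0.56 on the log2 scale), Ramp1 (3.48 ± 0.57), Apln (3.42 ± 0.20), Ptgfr (3.37 ± 0.28), Cdh15 (3.25 ± 0.52) and Plin5 (3.19 ± 0.20). Without the 12 h control library A_1 they were 3.86, 3.06, 3.49, 3.53, 3.32 and 3.23 in the same order. Hp and Cdh15 were low in control cells, with means of 0.64 and 1.04 CPM at 12 h, against 0.20 and 0.40 CPM at 4 h. Ramp1, a partner of the calcitonin-like receptor, had 0.45 with hCG, a call lost without the replicate block, and −2.91 in control cells. Cyp11a1 and Lhcgr differed by 1.81 ± 0.26 and 2.16 ± 0.40. For Dhcr7 the change was 0.79 with hCG and −0.62 without (difference 1.43 ± 0.21), and for Cxcr4 it was −0.57 with hCG and −2.33 without (1.76 ± 0.38). Cxcr4 thus fell less with hCG than in control cells.

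Negative differences were led by Pnoc, which encodes prepronociceptin, the precursor of an opioid-like peptide. With hCG it had 15.9, 10.5, 13.3 and 10.7 CPM at 12 h, against 71.3, 56.6, 69.8 and 33.2 CPM at 4 h. In control cells it had 22.3, 16.5, 28.4 and 20.7 CPM at 12 h, against 6.896, 8.46, 10.9 and 7.53 CPM at 4 h. The direction was thus opposite in the 2 settings, and the difference was −3.54 ± 0.26 (adjusted p = 1.5e-05), or −3.58 without the 12 h control library A_1. Npr3, a clearance receptor for natriuretic peptides, had −1.35 with hCG and 1.68 in control cells, a difference of −3.05 ± 0.34. Arl4d, a small GTPase, had 2.25, 1.98, 1.88 and 2.67 CPM at 12 h with hCG, against 28.7, 41.7, 31.05 and 33.5 CPM at 4 h, and a difference of −3.17 ± 0.25. Nmu and Wnt11 differed by −3.33 ± 0.73 and −3.31 ± 0.80, and Adgrv1, an adhesion receptor, by −3.10 ± 0.20. Nmu and Wnt11 were low in control cells, which limits their control changes. Nmu averaged 0.24 CPM at 12 h and 1.11 CPM at 4 h there, and Wnt11 0.079 and 0.93 CPM. Pgr differed by −2.53 ± 0.41 and Tac1 by −2.68 ± 0.58. Of the genes named here as differing, Nptx1 (−1.49) alone lost its call without the 12 h control library A_1 (adjusted p = 0.078).

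**Figure D3:**
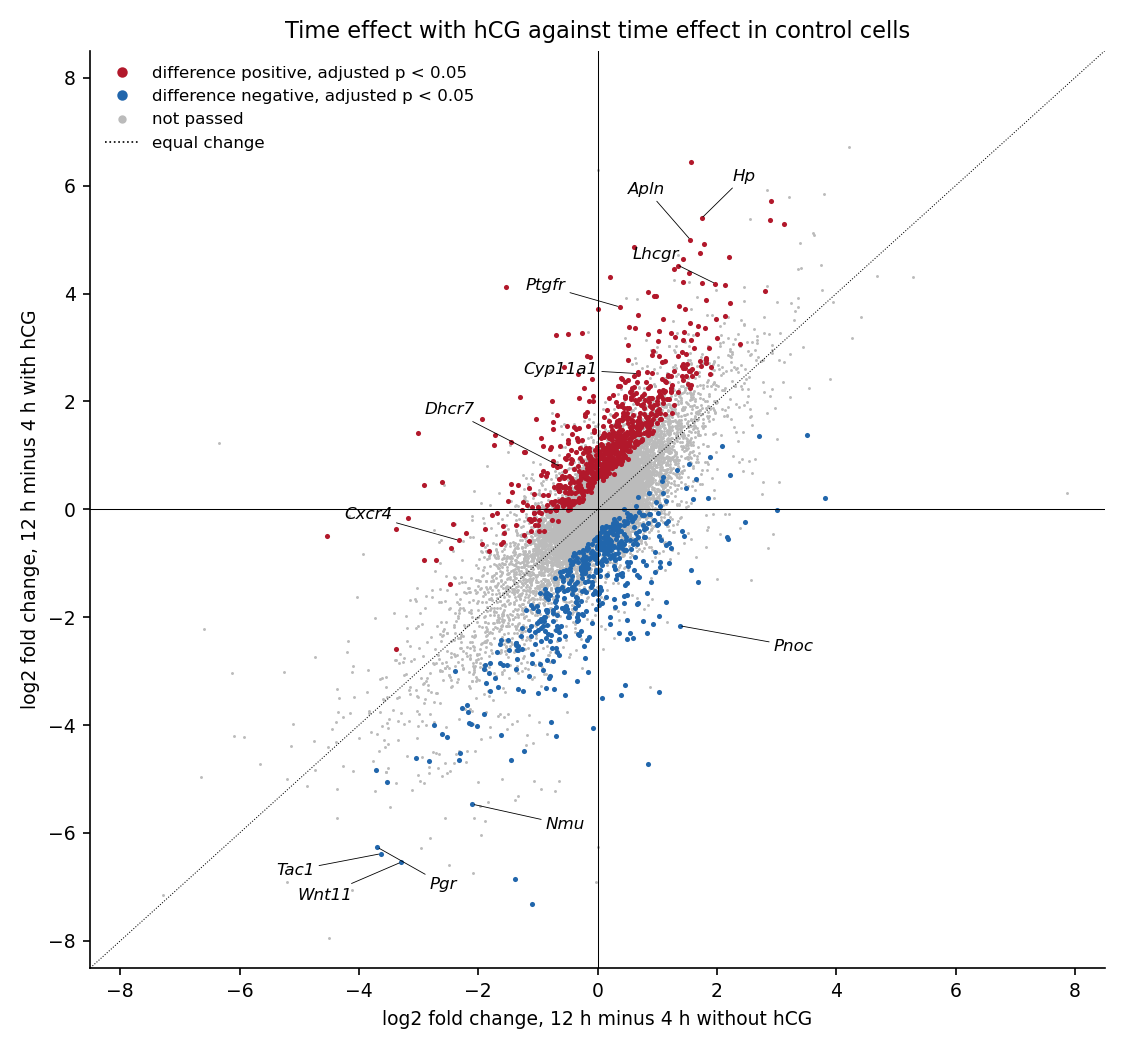
Log2 fold change, 12 h minus 4 h, with hCG (vertical axis) against that in control cells without hCG (horizontal axis), 1 point per tested gene; coloured genes are those whose difference passed, and 2 genes lie beyond the axes. Pnoc lay right of 0 and below 0, Apln, Hp and Ptgfr lay far above the line of equal change, and 735 genes passed above it and 514 below it.

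The difference from control time was also counted by gene list. Of 23 cholesterol synthesis genes 12 had a positive difference and 0 a negative one, and 13 and 0 without the 12 h control library A_1. With hCG the median of that list was 0.17, and in control cells it was −0.42, with 1 gene higher and 5 lower there (2 and 13 without label A_1). Of 25 luteal genes 8 had a positive difference and 1 a negative one (10 and 3 without that library). Of 27 immediate early and cyclic AMP-responsive genes 0 were positive and 8 negative (1 and 11 without it). Of 18 ERK feedback genes 0 were positive and 8 negative (0 and 9). Of 26 interferon-stimulated genes 5 were positive and 0 negative, and 11 were positive without that library. Of 23 unfolded protein and amino acid genes 0 differed in either direction and 13 fell in control cells (18 without label A_1), with medians of −0.93 with hCG and −0.98 without. Cell cycle genes had medians of −0.59 with hCG and −0.58 without, and 1 of 30 had a positive difference; 11 fell in control cells and 26 without label A_1. For the respiratory chain 0 of 23 genes differed, the median in control cells was −0.07 and none passed there, but without label A_1 10 rose in control cells with a median of 0.29.

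The same pair of times was measured in siNTS cells with hCG, in libraries from the same 4 labels. There 4574 genes (29.7%) rose and 4375 (28.4%) fell, or 8949 in all, and 5296 passed without the replicate block. The genes that rose in both numbered 4030, which is 88.1% of the siNTS list and 88.7% of the siNC list. Those that fell in both numbered 3702, 84.6% of the siNTS list and 86.6% of the siNC list. No gene passed in opposite directions. A test of the difference between the 2 siRNAs in the change with time called 0 genes (0%) with edgeR, with a lowest adjusted p of 0.7. At an unadjusted p under 0.05 there were 428 genes (2.78% of those tested), and DESeq2 called 10. Nts had 0.154, 0.121, 0.0764 and 2.73 CPM at 12 h in siNTS cells, against 1.99, 4.39, 4.16 and 42.9 CPM at 4 h, a log2 fold change of −4.36, against −3.77 in siNC cells, and the difference did not pass (adjusted p = 1). Lhcgr changed by 4.30 in siNTS cells and 4.18 in siNC cells, and Pgr by −5.89 in siNTS cells and −6.26 in siNC cells. Of the 24 glycolysis and hypoxia genes 11 rose and 0 fell in siNTS cells (median 0.37), while 10 rose and 7 fell in siNC cells (median 0.06), and none of them passed in the test of the difference. The count of 0 falls did not hold without label B_3. Slc2a1 had 82.5, 59.5, 61.9 and 408 CPM at 12 h in siNTS cells, against 189, 107, 138 and 174 CPM at 4 h, with 12 h library B_3 far above the others. Without label B_3, 10 of these genes rose and 6 fell in siNTS cells (median −0.01), and 9213 of all genes passed.

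**Figure D4:**
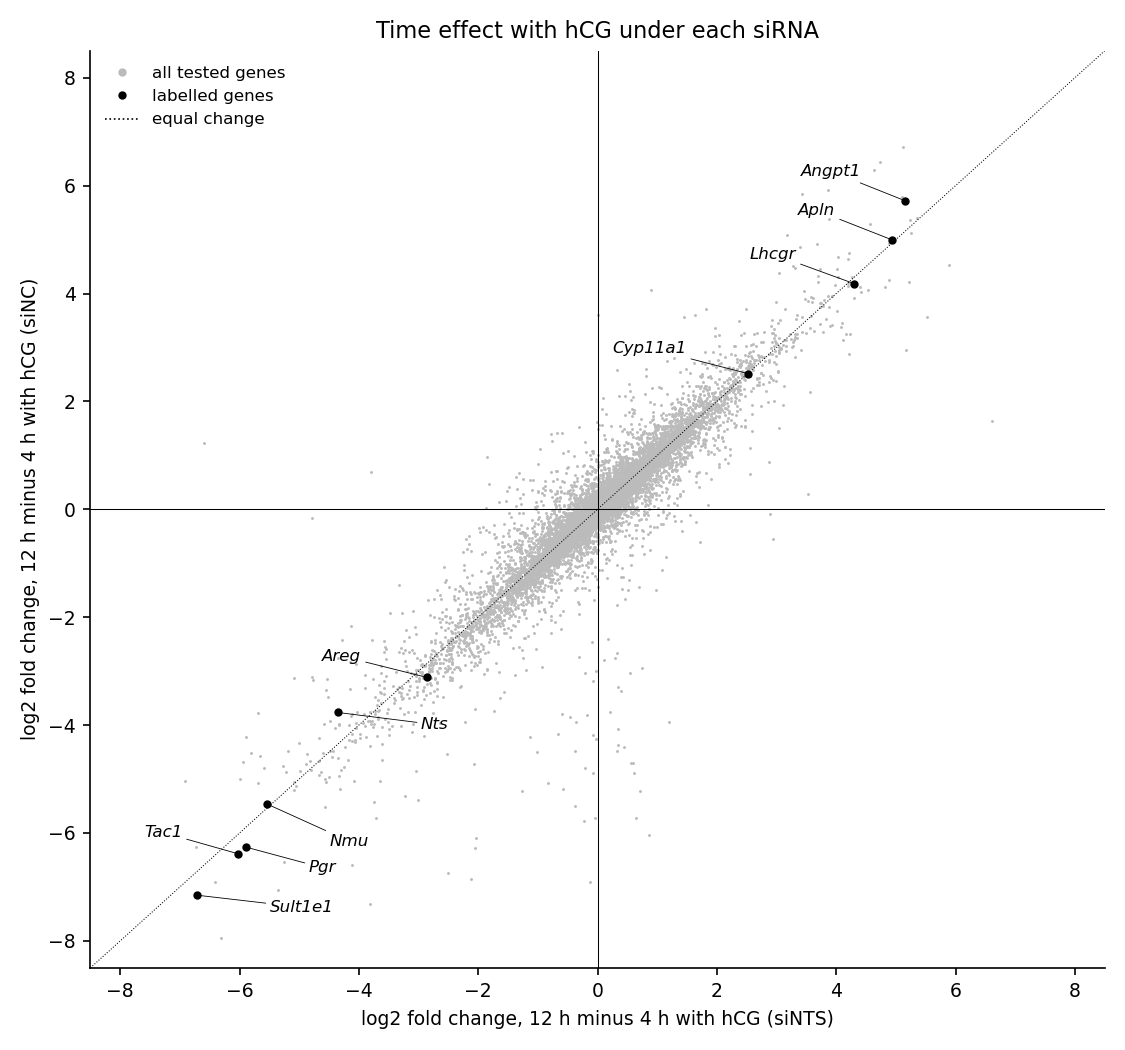
Log2 fold change, 12 h minus 4 h with hCG, in siNTS cells (horizontal axis) and in siNC cells (vertical axis), 1 point per tested gene, with 2 genes beyond the axes. The genes labelled by name lay near the line of equal change, and a column of genes near 0 in siNTS cells that fell in siNC cells includes genes that stood high in 1 library, siNC with hCG at 4 h, label A_1.

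Markers of granulosa cells were present at both times, since all 12 were above 1 CPM in each, and their sum was 2167 to 2589 CPM at 12 h and 3863 to 6092 CPM at 4 h. Of these 4 rose and 6 fell, among them Amhr2, Fshr and Foxl2 upward and Amh and Inha downward. Theca and interstitial markers summed to 804 to 1276 CPM at 12 h and 230.3 to 347 CPM at 4 h. That list holds Lhcgr, and also Aldh1a1, a retinal dehydrogenase that rose by 1.87, while Pdgfra and Nr2f2, a growth factor receptor and an orphan nuclear receptor of stromal cells, had −1.20 and −0.47. Surface epithelium markers summed to 98.9 to 167 CPM at 12 h and 196 to 312 CPM at 4 h, with 4 of 6 tested lower and 2 higher. Keratin genes Krt7, Krt8, Krt18 and Krt19 had log2 fold changes of −4.08, −1.11, −1.34 and −2.74. Krt7 was near 0 at both times, with means of 0.038 CPM at 12 h and 0.67 CPM at 4 h, against 96.1 and 206 CPM for Krt8. The part of these markers in the other results was not tested.

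Among the 8 libraries of the comparison, oocyte transcripts were highest in 1. The 14 oocyte markers summed to 4.55 to 5.29 CPM at 12 h, with Oosp1, Nlrp5 and Figla at 0, and to 9.81 to 25.8 CPM at 4 h. The sum of 25.8 CPM was that of the 4 h library A_1, and the other 4 h libraries had at most 11.8 CPM. Of 13 tested markers 9 fell with hCG in siNC cells (median −3.06), 3 fell without label A_1 (median −0.07), 5 fell without the replicate block and 1 fell in siNTS cells. Gdf9, an oocyte growth factor, had 1.09, 0.907, 0.877 and 0.7696 CPM at 12 h, against 5.23, 1.67, 1.12 and 2.31 CPM at 4 h. Its groups were separate, and 4 h library A_1 was the highest of these 8. In the groups set beside them Gdf9 was uneven too. It averaged 2.83 CPM in control cells at 4 h (standard deviation 3.25) and 2.10 CPM in siNTS cells at 12 h (2.51). Ooep, an oocyte protein, had 0.733, 0.512, 0.3897 and 0.553 CPM at 12 h, against 6.68, 5.26, 4.996 and 4.71 CPM at 4 h (−3.31 ± 0.18), and its 4 h libraries were alike. Erythrocyte markers summed to 101 to 907 CPM at 12 h and 303 to 3050.3 CPM at 4 h, with overlapping groups. All 6 were called lower at 12 h, and 0 without the replicate block.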

How the data were processed

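For each library the authors deposited estimated counts by Entrez gene. Salmon 1.4.0, R 4.1.0, edgeR, limma and build GRCm39 stand in the submitters' processing notes without roles or order. Salmon shares out by estimate the reads that fit several transcripts, so counts of near-identical genes are uncertain. Per the labels' protocols a stranded mRNA kit was used, read over 151 cycles from both ends. The authors' tables of their own comparisons were not used.

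The estimated counts were rounded, and genes were kept by filterByExpr over the 24 libraries, which left 15405 of 39253 genes with 99.97% of the counts. TMM factors were computed over the 24 libraries. The 8 siNC hCG libraries were fitted by edgeR 4.0.16 (R 4.3.3; glmQLFit and glmQLFTest) with the replicate label as a block (residual degrees of freedom 3, prior 6.48), with Benjamini-Hochberg adjustment over all tested genes. The block was used because the libraries are paired by label, and the sample titles give each label 1 culture date in every group (A_2 and B_2 share one). Deviations from the group means correlated between the 12 h and 4 h libraries of a label at 0.525, 0.590, 0.288 and 0.692 for A_1, A_2, B_2 and B_3 over 10798 genes. The siNTS hCG libraries and the control libraries were fitted in the same way, and the differences between changes with time as interaction terms over 16 libraries each. Standard errors are the log2 fold change over the root of F, and CPM use TMM-scaled library sizes.

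The script was tested on simulated counts. The comparison, the 35 gene lists and the tests were chosen with earlier results of these data known. Genes were named by rule: up to 12 each way with the largest called change, the same direction under all 4 labels and at least 5 CPM on average in the higher group; a fixed panel; up to 4 members of each list by adjusted p; and up to 6 each way in the differences. Some genes that this rule names are not reported here. Alternatives were no block, culture date as block, RLE factors, other count filters, DESeq2 1.42.0, limma-voom (limma 3.58.1), all 24 libraries, a minimum change of 1.5-fold, an adjusted p of 0.01 and leaving out each label. The list counts under other settings, with or without the 12 h control library A_1, other fits of the control cells, the siNTS list counts without label B_3 and the endothelial sum without Kdr were added after seeing the data.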

Additional observations from a re-analysis of the deposited data

Results flagged for a closer look

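For each of the 157 named genes and each time, 1 library was looked for that stood far from the other 3 (Dixon's criterion), and 25 of 314 gene and time pairs met it. Chance alone flags about 1 in 20 groups. Library B_3 was the one in 7 cases at 12 h and 11 at 4 h.

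At 12 h the B_3 library had 9.67 CPM of Nts (others 1.49 to 2.69), 305 CPM of Cebpb (191 to 205), 18.2 CPM of Fosl1 (8.65 to 9.74) and 8.54 CPM of Phlda1 (4.58 to 4.86). It also had 2.72 CPM of Mmp13 (0.279 to 0.341), 1.66 CPM of Gdf15 (0.733 to 0.877) and 10 CPM of Tnfaip3 (2.14 to 2.78). The 12 h library B_2 had 9.04 CPM of Akr1c18 (11.8 to 12.2) and 0.0487 CPM of Rgs5 (0.0233 to 0.0272).

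At 4 h the B_3 library had 5.57 CPM of Apln (others 2.93 to 3.38), 35.6 CPM of Npy (5.41 to 8.51), 36.3 CPM of Kcne4 (8.82 to 13.3) and 14.5 CPM of Cyp19a1 (3.28 to 4.54). It had 180 CPM of Nts (16.1 to 28.7), 130 CPM of Egr3 (37.1 to 49.9), 30.8 CPM of Atf3 (14.5 to 16.4) and 33 CPM of Phlda1 (15.8 to 18.1). It had 175 CPM of Serpinb2 (39.2 to 47.6), 45.2 CPM of Mmp13 (3.03 to 4.11) and 11.2 CPM of Pmaip1 (3.48 to 3.71). Other 4 h libraries stood apart for Cdc20 (60.8 CPM in B_2, others 66.3 to 67.1), Plin4 (5.53 CPM in A_2, others 3.98 to 4.06) and Krt18 (39.3 CPM in A_2, others 60.6 to 63.7). The 4 h library A_1 stood apart for Dppa3 (1.03 CPM, others 0.101 to 0.183) and Oosp1 (0.751 CPM, others 0).

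The change with time differed between hCG and control cells, by edgeR's test of the difference, for 735 genes upward and 514 downward. Positive differences among the named genes, on the log2 scale, were those of Angpt1 (2.73), Hp (3.68), Pik3c2g (2.52), Apln (3.42), Cdh15 (3.25), Plin5 (3.19), Kcnk3 (2.47), Lhcgr (2.16), Slc25a18 (2.02) and Ramp1 (3.48). Others were those of Cyp11a1 (1.81), Cxcr4 (1.76), Ptgfr (3.37), Fshr (1.17), Cebpb (0.57), Cdkn1b (0.78), Nr0b2 (1.30), Dhcr7 (1.43), Mvk (1.14), Hsd17b4 (0.60), Bst2 (1.19) and Rora (1.88). Negative differences were those of Wnt11 (−3.31), Tac1 (−2.68), Pgr (−2.53), Nmu (−3.33), Nptx1 (−1.49), Msc (−1.14), Pnoc (−3.54), Arl4d (−3.17), Adgrv1 (−3.10), Npr3 (−3.05) and Egr3 (−1.44). So were those of Fosb (−0.93), Ier5 (−0.68), Dusp5 (−1.35), Phlda1 (−1.69), Ptx3 (−1.72), Ccn2 (−0.90), Tpm1 (−0.65), Hmox1 (−1.02), Gclc (−1.15), Tnfaip3 (−1.90), Acsl4 (−0.67) and Acta2 (−0.60).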

How the results depend on the processing

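With hCG in siNC cells, 6957 genes passed without the replicate block in place of 8818, 7108 to 9218 when each label was left out in turn, and 3581 for a change beyond 1.5-fold; 51.5% of the called genes were higher at 12 h. In siNTS cells 5296 passed without the replicate block and 3311 beyond 1.5-fold, in place of 8949. The difference from control time was the least stable count: in place of 1249 it was 322 at an adjusted p of 0.01, 166 beyond 1.5-fold, 459 without the replicate block, 2175 with DESeq2, 2174 with all 24 libraries and the block, 586 with all 24 and no block, and 96 to 1821 when a label was left out. The difference between siRNAs gave 10 genes with DESeq2 and 0 to 1 when a label was left out, in place of 0. In control cells 5859 genes passed without label A_1 and 5783 in a fit of 16 libraries, in place of 2160. The cause of these shifts was not tested. Of 157 named genes 12 lost their call without the replicate block, the pairing by label, among them Star (−0.41), Vegfa (−0.62) and Cebpb (−0.40), and the calls of all 157 held with culture date as the block, RLE factors and limma-voom. Cyp19a1, Akr1c18 and Has2 passed when no filter on low counts was used. Nr4a1, not called, had −0.045 to 0.26 when a label was left out, in place of 0.10, and changed sign without B_2. With 4 libraries a time, counts of a few reads (Snurf, Oosp1) limit what can be said of single genes.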

Other observations

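In 4 h library A_1 of siNC cells with hCG, 50 genes stood at least 5 times above each of the other 7 libraries of the comparison, at a level of at least 0.25 CPM. Of these 43 were called lower at 12 h and 9 are on the oocyte list. The 4 h library B_3 held 14 such genes, 13 of them called lower at 12 h and 0 on the oocyte list, the 12 h library A_2 held 1, and the other 5 libraries held 0.

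Hemoglobin genes are red cell transcripts, and among them Hbb-bs had 338, 84.7, 386 and 47.5 CPM at 12 h, against 709.7, 279, 1312 and 139 CPM at 4 h. Each label was lower at 12 h, but the labels differed more from one another than the times did.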
